A study of Mus musculus with 10 samples.

Results

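The 57 genes described here are the ligands, receptors, intracellular mediators, antagonists and latency proteins of transforming growth factor beta (TGF-beta) and bone morphogenetic protein (BMP) signalling. They were chosen by gene symbol alone, as the BMP, GDF, TGF-beta, activin and inhibin ligands with their receptors, the SMADs, the named secreted antagonists, the ID genes and the LTBP genes, and they make up 57 of the 15078 genes of the table. Of these, 51 averaged 10 or more normalised reads across the libraries and were tested. The other 6, Bmp15, Gdf15, Inha, Nog, Chrdl2 and Bmpr1b, were too low to test.

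Ligands of the TGF-beta superfamily bind a pair of type II and type I receptor kinases, and the type I receptor then phosphorylates receptor-regulated SMADs, which enter the nucleus with Smad4. Smad2 and Smad3 carry TGF-beta and activin signals, whereas Smad1, Smad5 and Smad9 carry BMP signals, and Smad6 and Smad7 are inhibitory SMADs that are induced by the pathway and dampen it. Outside the cell, BMPs are held off their receptors by antagonists such as noggin, chordin, gremlin and follistatin, and TGF-beta is secreted in a latent form that latent TGF-beta binding proteins (LTBPs) anchor in the matrix. In bone, BMPs drive osteoblast and cartilage differentiation, the ID genes are classic BMP targets, and TGF-beta stored in the matrix is released when bone is remodelled.

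RNA was sequenced from CD51+CD200+ stromal cells sorted from mouse bones, in 4 libraries of graft BM-MSCs, 3 of BM-MSCs and 3 of P-SSCs. Graft BM-MSCs were Tomato+ mesenchymal stem cells from the marrow of Postn Cre-ER;tdTomato femurs (labelled as transgenic, POSTN-CRE) that had been implanted under the skin of wild-type recipients 5 months earlier. Tamoxifen had been given to the recipients soon after the operation, so that Cre was active in cells using the Postn promoter and Tomato stayed on in their descendants. BM-MSCs and P-SSCs came from the marrow and the periosteum, the sheath around the bone, of wild-type mice, and their titles read host at steady state. The mice were on a C57BL/6J background (wild type) or a B6.129 background (Postn Cre-ER) and young adult unless otherwise specified. The graft group thus differed from both others in genotype, transplantation and time, and in tamoxifen as far as the methods describe its use. The mark is carried by any cell that used the Postn promoter while tamoxifen was present, and by its progeny. Each library was made from few sorted cells, and BM-MSC 2+4 and P-SSC 2+5 each pooled the RNA of a pair of animals. Replicates came from different mice, and p-values measure the spread between these samples.

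Libraries held 15415421 to 25223295 reads, so that a count of 3 reads equalled 1.69 to 3.82 normalised reads (the authors' size-factor-normalised counts). A value of 0 was more frequent in graft BM-MSCs (22.6% to 38.3% of all genes per library) than in the other groups (11.5% to 19.0%), and such genes are given as listed at 0. Genes with a GC content above 65% stood high in the 4 graft libraries and in P-SSC 4 and low in the 3 BM-MSC libraries, P-SSC 1 and P-SSC 2+5. The graft and BM-MSC groups thus lay wholly on opposite sides of this split, and its part in their differences cannot be told apart from that of the groups. Summed marrow stroma markers (5 of 5 detected) lay at 710140 to 845455 normalised reads in graft BM-MSCs, at 866473 to 1183440 in BM-MSCs and at 5345 to 11265 in P-SSCs, while summed periosteal markers lay at 1032 to 3130, 5361 to 9099 and 258400 to 493587. Summed osteoblast markers were highest in BM-MSCs (597684 to 1289760, against 75839 to 101204 in graft BM-MSCs and 193211 to 430911 in P-SSCs). In BM-MSCs and P-SSCs that sum was mostly Col1a1, which was lower in graft BM-MSCs than in P-SSCs, while Ibsp and Alpl were higher and Bglap, Bglap2 and Dmp1 were not called (median difference of the 6 markers 1.09). Summed cartilage markers were also highest in BM-MSCs (35523 to 80216, against 5397 to 14018 and 7968 to 17644), and 4 of these 6 were at 0 in all graft libraries. Erythroid markers summed to 1482 to 27479 in graft BM-MSCs, 58582 to 204631 in BM-MSCs and 202 to 1407 in P-SSCs, leukocyte markers to 4684 to 85471 (highest in graft BM-MSC 3, median 7406), 19255 to 53284 and 486.1 to 2280.2, and tendon markers to 0 to 347, 93.7 to 157 and 13916 to 42803. The detected endothelial markers were at 0 in all graft libraries. What part these cell types had in the values below was not tested, and in bulk RNA fewer cells of a type cannot be told apart from less RNA per cell.

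Values for single genes are given in a fixed order, as graft BM-MSC 1 to 4, then BM-MSC 1, 2+4 and 3, then P-SSC 1, 2+5 and 4. Differences are on the log2(normalised reads + 1) scale with their standard error, they depend on the added 1 where libraries are at 0, and a gene was called at an adjusted p under 0.05 (limma, Benjamini-Hochberg over all 13644 genes tested). Levels of different genes are compared only as normalised reads per kilobase of exon.

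**Figure D1:**
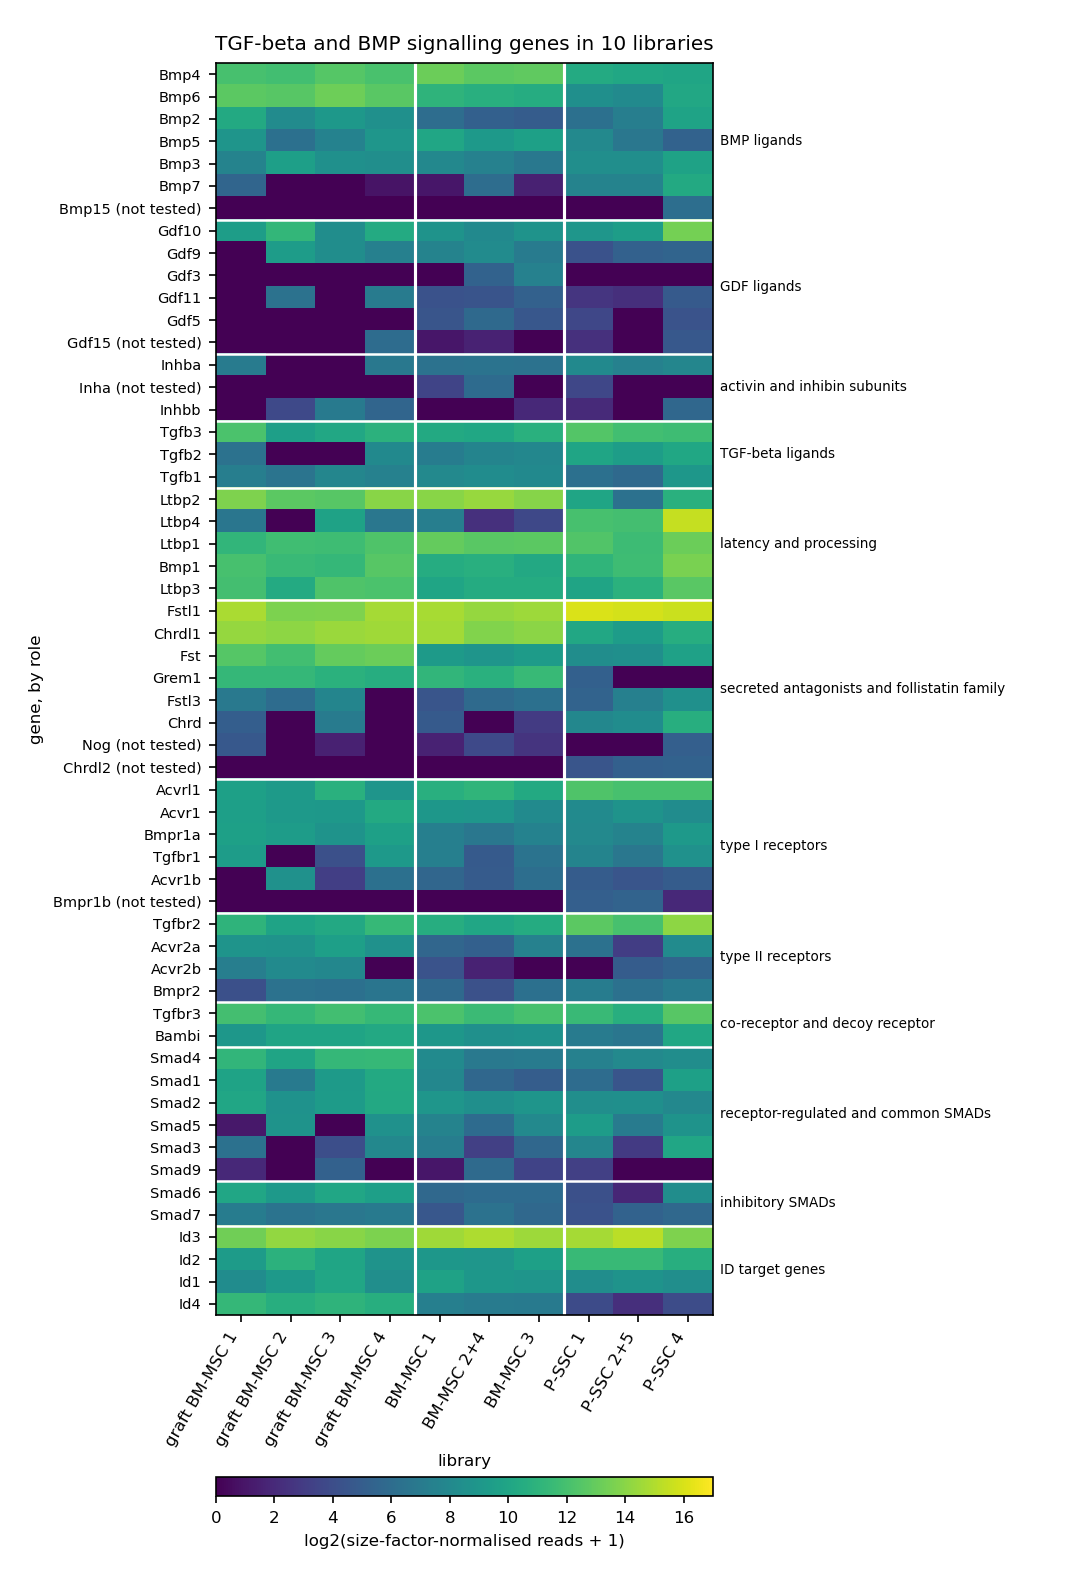
Colour shows log2(size-factor-normalised reads + 1) of the genes (rows, grouped by role) in each of the 10 libraries (columns, white lines between groups). Chrdl1, Grem1, Ltbp2 and Id4 are darker in P-SSCs than in the marrow groups, Ltbp4 is brighter there, and Id4, Fst, Smad4 and Smad6 are brightest in graft BM-MSCs.

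Between graft BM-MSCs and P-SSCs, 15 of the 51 tested genes were called (29.4%), against a background of 18.1% of all genes tested. In graft BM-MSCs 9 were higher (17.6%, background 6.08%) and 6 lower (11.8%, background 12.0%). The higher genes were Bmp4, Bmp6, Id4, Smad4, Smad6, Ltbp2, Chrdl1, Fst and Grem1, and the lower genes were Bmp7, Tgfb2, Ltbp4, Fstl1, Acvrl1 and Tgfbr2. Against BM-MSCs, 7 were called in graft BM-MSCs (13.7%, background 7.67%). Of these 6 were higher in the graft (11.8%, background 2.61%), namely Bmp2, Bmp6, Bmpr1a, Smad4, Id4 and Fst, and 1 was lower, Gdf5 (1.96%, background 5.06%). Between P-SSCs and BM-MSCs 10 were called (19.6%, background 9.15%), with 4 higher in P-SSCs (Id2, Ltbp4, Fstl1 and Tgfbr2; 7.84%, background 4.57%) and 6 lower (Bmp4, Bmp6, Id4, Ltbp2, Chrdl1 and Grem1; 11.8%, background 4.58%). The comparisons share libraries, so each set of calls stands for itself.

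The median log2 difference of the 51 genes was 0.14 for graft BM-MSCs against P-SSCs (-0.47 over all genes tested), 0.27 for graft BM-MSCs against BM-MSCs (-0.53) and 0.55 for P-SSCs against BM-MSCs (0.00). The split of calls moved with the scaling. For graft BM-MSCs against P-SSCs it was 14 higher and 4 lower after a GC correction (18.7% of all genes tested were then called in either direction), 8 and 3 by edgeR (11.2% of all genes), and 11 and 3 by DESeq2 (21.4%). For graft BM-MSCs against BM-MSCs it was 6 and 2 after median centring (7.29% of all genes), 7 and 0 after quantile normalization (7.50%), 9 and 0 after the GC correction (9.06%) and 3 and 0 by edgeR (2.32%). For P-SSCs against BM-MSCs it was 2 and 6 after median centring (8.80% of all genes), 1 and 5 by edgeR (4.54%) and 8 and 7 by DESeq2 (11.2%). Scaling also moved the median of all genes, from -0.47 for graft BM-MSCs against P-SSCs to -0.02 after quantile normalization, 0.03 by edgeR, -0.04 by DESeq2 and 0.29 after the GC correction, and from -0.53 for graft BM-MSCs against BM-MSCs to -0.17, -0.05, -0.04 and 0.24. Without P-SSC 4 the counts were 17 (13 higher and 4 lower), 11 (8 and 3) and 9 (2 and 7), and the shares of all genes called were 22.0%, 11.6% and 8.82%. With the GC split as a covariate 7 of the 15 calls between graft BM-MSCs and P-SSCs remained (Bmp4, Bmp6, Chrdl1, Grem1, Fst, Id4 and Tgfbr2), with 7.92% of all genes called. Against BM-MSCs 0 of the 7 graft calls remained by limma, with 0.293% of all genes called, against 7.67% without the covariate. In that fit 10 of the 51 genes had an unadjusted p under 0.05. Only the P-SSC group lay on both sides of the split, so the covariate was estimated from P-SSC 4 against P-SSC 1 and P-SSC 2+5. Every difference given below with this covariate rests on that contrast, and the fit cannot tell the split apart from the graft and BM-MSC groups.

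Bmp4 and Bmp6 were the leading BMP ligands, and their balance differed between the groups. Bmp4, which promotes osteoblast differentiation and is known as a product of marrow stroma, had the highest level of the role over all libraries, with means of 2048, 3437 and 527 normalised reads per kilobase in graft BM-MSCs, BM-MSCs and P-SSCs. It stood at 4250.1, 3718, 5952 and 4495 normalised reads in graft BM-MSCs, 9223, 6627 and 7329 in BM-MSCs and 1372, 1143 and 1041 in P-SSCs. The 3 groups did not overlap, with BM-MSCs highest and P-SSCs lowest. Bmp4 was higher in graft BM-MSCs than in P-SSCs (1.94 ± 0.23, adjusted p = 0.000238) and lower in P-SSCs than in BM-MSCs (-2.70 ± 0.24, adjusted p = 7.96e-05), and the difference between graft BM-MSCs and BM-MSCs was not called (-0.75 ± 0.23, adjusted p = 0.0722, 95% interval -1.26 to -0.25).

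Bmp6, an osteogenic BMP that also regulates hepcidin and iron balance, ran in another order. It stood at 6766, 6022, 9827 and 6392 normalised reads in graft BM-MSCs, 2081, 1720.1 and 1440.0 in BM-MSCs and 355, 276 and 1144 in P-SSCs. The lowest graft value was above the highest of both other groups. Bmp6 was higher in graft BM-MSCs than in P-SSCs (3.88 ± 0.44, adjusted p = 0.000202) and than in BM-MSCs (2.04 ± 0.44, adjusted p = 0.0214), and lower in P-SSCs than in BM-MSCs (-1.84 ± 0.47, adjusted p = 0.0339). P-SSC 4, which lay on the graft side of the GC split, held 3.62 times the mean of the other P-SSC libraries, and the graft mean was 6.34 times P-SSC 4. With the GC split as a covariate the difference from BM-MSCs was 0.18 (adjusted p = 0.931). It also lost its call by edgeR and without any of the 3 BM-MSC libraries (adjusted p 0.0563 to 0.0914), and the difference of P-SSCs from BM-MSCs lost it without any of graft BM-MSC 1 or 4, the 3 BM-MSC libraries, P-SSC 1 or P-SSC 2+5 (adjusted p 0.0531 to 0.131).

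A ratio of both ligands within a library does not depend on the size factor of that library, but it can depend on the GC split. Bmp6 per Bmp4, both per kilobase, was 0.918, 0.934, 0.952 and 0.82 in graft BM-MSCs, 0.13, 0.15 and 0.113 in BM-MSCs and 0.149, 0.139 and 0.633 in P-SSCs. Graft BM-MSCs thus held nearly as much Bmp6 as Bmp4, while both other groups were led by Bmp4, with P-SSC 4 between them. Of the summed per-kilobase level of the 7 BMP ligands, Bmp4 took 45.7% to 51.1% in graft BM-MSCs, 82.3% to 84.6% in BM-MSCs and 30.9% to 69.4% in P-SSCs. Bmp6 took 41.9% to 46.5%, 9.58% to 12.3% and 9.54% to 19.5%. This ratio was chosen after its values were seen and was not tested. The libraries at 0.633 or above all lay on the graft side of the GC split, and the others on its low side. Bmp6 has a GC content of 57.8% and Bmp4 of 52.5%, and the part of the split in the ratio was not tested.

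Bmp2, a potent inducer of bone formation, stood at 1271, 290.1, 541 and 376 normalised reads in graft BM-MSCs, 65.8, 35.9 and 29.6 in BM-MSCs and 75.8, 157 and 945 in P-SSCs. Every graft library was above every BM-MSC library, and P-SSC 4 lay among the graft values. It was higher in graft BM-MSCs than in BM-MSCs (3.63 ± 0.90, adjusted p = 0.0375), a call that was lost without any of graft BM-MSC 1, 3 or 4, the 3 BM-MSC libraries or P-SSC 2+5 (adjusted p 0.0510 to 0.129), and the difference fell to 0.53 with the GC split as a covariate. Bmp7, a kidney and skeletal morphogen, was highest in P-SSCs. It stood at 45.8, 0, 0 and 0.863 normalised reads in graft BM-MSCs, 1.04, 66.4 and 1.97 in BM-MSCs and 196, 189.8 and 1305 in P-SSCs. All P-SSC values were above those of both other groups, and 2 graft libraries were listed at 0. Bmp7 was lower in graft BM-MSCs than in P-SSCs (-6.91 ± 1.81, adjusted p = 0.024), and without graft BM-MSC 3 or any P-SSC library the adjusted p was 0.0531 to 0.0692. The difference of P-SSCs from BM-MSCs was not called (5.62 ± 1.93, adjusted p = 0.116).

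Bmp5 and Bmp3 were not called in any comparison. Bmp5 ranged from 566 to 1043 normalised reads in BM-MSCs, above all graft (76.7 to 477) and all P-SSC values (39.7 to 253), with a difference of -2.92 ± 0.86, adjusted p = 0.064 for P-SSCs against BM-MSCs. Bmp3, which opposes osteogenic BMPs, ranged from 109 to 243 in BM-MSCs, from 334 to 894 in P-SSCs and from 194 to 774 in graft BM-MSCs. Bmp15, an oocyte factor, was at 0 in every library except P-SSC 4 (70.8).

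**Figure D2:**
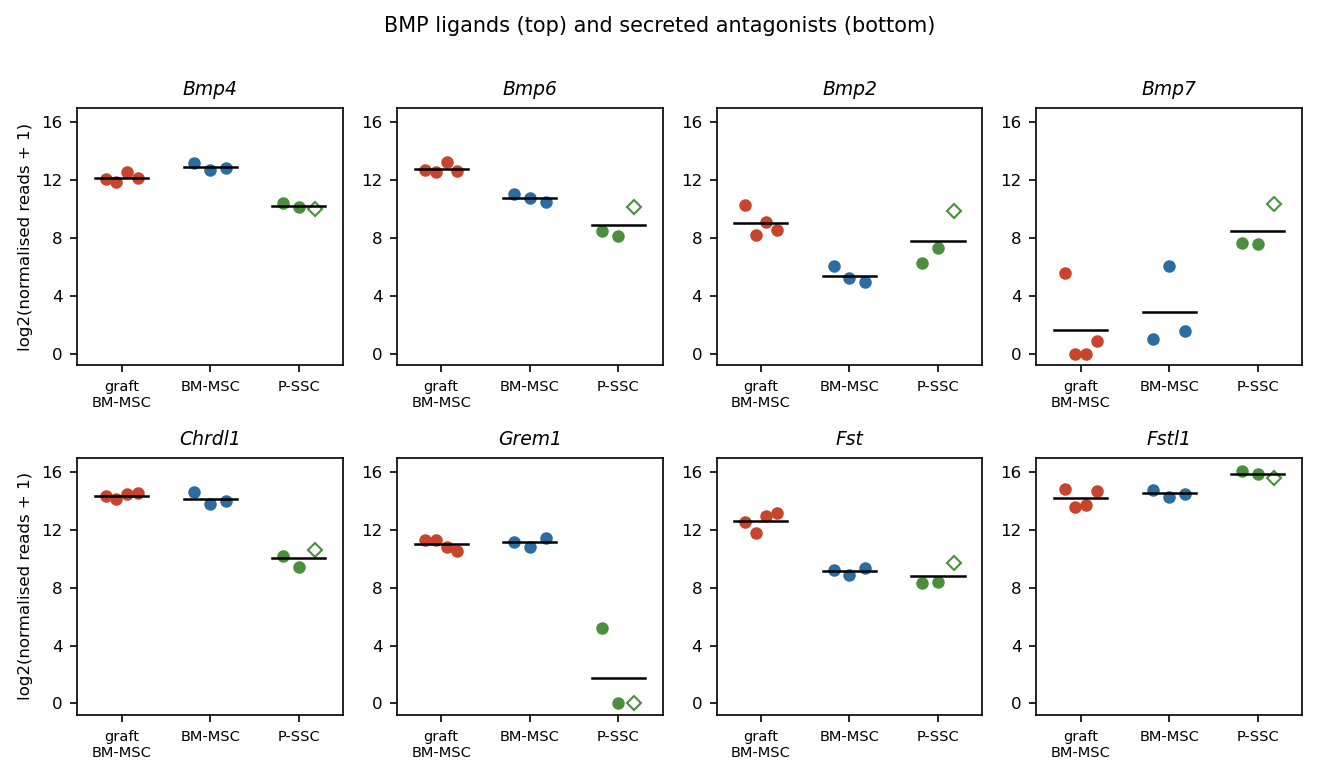
Each point is a library, plotted as log2(normalised reads + 1), with a bar at the group mean and an open diamond for P-SSC 4, the P-SSC library on the graft side of the GC split. Bmp6 and Fst are highest in graft BM-MSCs, Bmp4, Chrdl1 and Grem1 are lowest in P-SSCs, and Bmp7 and Fstl1 are highest there.

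Among the growth and differentiation factors (GDFs), Gdf10, also known as BMP3b, had the highest per-kilobase level averaged over all libraries, to which P-SSC 4 added most, while Gdf9 was higher in BM-MSCs (102 against 71.0 per kilobase). Gdf5 was the member called. Gdf10 stood at 712, 2486, 328 and 1331 normalised reads in graft BM-MSCs, 418, 268 and 424 in BM-MSCs and 499, 699 and 11133 in P-SSCs. P-SSC 4 held more than any other library, all P-SSCs were above all BM-MSCs, graft BM-MSCs overlapped with both, and no comparison was called (P-SSCs against BM-MSCs 2.12 ± 1.08, adjusted p = 0.358). Gdf5, a joint morphogen, was listed at 0 in all 4 graft libraries and stood at 20.9, 54.8 and 23.7 in BM-MSCs and at 11.4, 0 and 19.4 in P-SSCs. Taking the highest floor of 3 reads per library as the graft level, Gdf5 was lower there than in BM-MSCs by at least 11.0-fold, and this was called (adjusted p = 0.0264). Summed cartilage markers were also lower in all graft than in all BM-MSC libraries, and their part was not tested. The call was lost without any BM-MSC library (adjusted p 0.0608 to 0.0935), after quantile normalization or the GC correction, and by edgeR. Gdf3 had values in BM-MSC 2+4 and BM-MSC 3 only (39.0 and 179). Gdf9, an oocyte factor, ranged from 0 to 661 in graft BM-MSCs, from 134 to 292 in BM-MSCs and from 18.7 to 43.6 in P-SSCs, Gdf11 ranged from 0 to 136 over all libraries, and none of these was called. Gdf15, a stress-induced member, was too low to test, with a highest value of 63.9 in graft BM-MSC 4.

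Among the subunits of activin and inhibin, Inhba, which forms activin A, had the highest per-kilobase level averaged over all libraries, but Inha was higher in BM-MSCs (16.2 against 13.3) and Inhbb in graft BM-MSCs (10.7 against 9.57). It stood at 135, 0, 0 and 109.6 normalised reads in graft BM-MSCs, 83.5, 86.5 and 84.8 in BM-MSCs and 271, 179.6 and 221 in P-SSCs. All graft values were below all P-SSC values, and 2 graft libraries were listed at 0, but no comparison was called (graft BM-MSCs against P-SSCs -4.32 ± 1.86, adjusted p = 0.135). Inhbb stayed at or under 124 and Inha at or under 61.2 in every library.

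All 3 TGF-beta ligands were detected, and Tgfb3 led them in every group. Tgfb3 had mean levels of 629, 408 and 1227 per kilobase and took 87.4% to 96.8% of the per-kilobase level of the ligands in graft BM-MSCs, 77.4% to 84.5% in BM-MSCs and 76.6% to 89.4% in P-SSCs. It stood at 4631, 773, 1173 and 1938 normalised reads in graft BM-MSCs, 1282, 1116 and 1739.8 in BM-MSCs and 5533, 3618 and 3302 in P-SSCs. All P-SSC values were above all BM-MSC values, and graft BM-MSC 1 lay among the P-SSCs. No comparison of Tgfb3 was called (P-SSCs against BM-MSCs 1.58 ± 0.56, adjusted p = 0.127).

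Tgfb2, an isoform needed for heart development, stood at 85.3, 0, 0 and 271 normalised reads in graft BM-MSCs, 141, 199 and 233 in BM-MSCs and 1039, 701 and 1138 in P-SSCs. P-SSCs were above both other groups without overlap, and 2 graft libraries were listed at 0. The difference between graft BM-MSCs and P-SSCs was called (-6.25 ± 1.87, adjusted p = 0.0427), but the call was lost without any of graft BM-MSC 2 or 3, the 3 BM-MSC or the 3 P-SSC libraries (adjusted p 0.0686 to 0.141), and edgeR gave a difference of -3.33 (adjusted p = 0.230). Tgfb1, the isoform most abundant in bone matrix, stood at 157, 92.8, 218 and 180.4 normalised reads in graft BM-MSCs, 261, 313 and 273 in BM-MSCs and 74.8, 54.8 and 511 in P-SSCs. P-SSC 4 was the highest library and the other P-SSCs the lowest, and no comparison was called.

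Among the LTBPs, Ltbp2 was lower and Ltbp4 higher in P-SSCs than in the marrow groups. Ltbp2, which binds fibrillin microfibrils and, unlike other LTBPs, does not carry latent TGF-beta, had the highest per-kilobase level of the latency and processing genes in graft BM-MSCs (1294) and BM-MSCs (2163), against 117 in P-SSCs. It stood at 13289, 6704, 6117 and 16238 normalised reads in graft BM-MSCs, 15966, 21696 and 15447 in BM-MSCs and 1023, 81.5 and 1761 in P-SSCs. All P-SSC values were below those of both other groups. Ltbp2 was higher in graft BM-MSCs than in P-SSCs (4.19 ± 0.86, adjusted p = 0.00672) and lower in P-SSCs than in BM-MSCs (-5.04 ± 0.92, adjusted p = 0.00502), and between graft BM-MSCs and BM-MSCs it was not called (-0.85 ± 0.86, adjusted p = 0.56). With the GC split as a covariate the graft difference from P-SSCs was 2.46 (adjusted p = 0.294).

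Ltbp4, which is needed for elastic fibre assembly, ran the opposite way. It stood at 101, 0, 877 and 104 normalised reads in graft BM-MSCs, 151, 4.22 and 11.8 in BM-MSCs and 4320.0, 3881 and 45857 in P-SSCs. P-SSCs were far above both other groups, and P-SSC 4 held 11.2 times the mean of the other P-SSC libraries. The mean in P-SSCs was 323 times that in BM-MSCs and 66.7 times that in graft BM-MSCs, and without P-SSC 4 it was 73.5 and 15.2 times. Both differences were called (8.72 ± 2.21, adjusted p = 0.0325 for P-SSCs against BM-MSCs, and -7.37 ± 2.07, adjusted p = 0.0324 for graft BM-MSCs against P-SSCs). The first was lost without any of graft BM-MSC 1 or 4, BM-MSC 2+4 or 3 or the 3 P-SSC libraries (adjusted p 0.0502 to 0.136), the second without any of graft BM-MSC 1 or 4, BM-MSC 3 or the 3 P-SSC libraries (adjusted p 0.0521 to 0.114), and edgeR called neither. Within each library, Ltbp4 per Ltbp2 (per kilobase) was 5.35, 60.3 and 33.0 in P-SSCs and at most 0.182 in the marrow libraries of both groups, a ratio that was chosen after its values were seen.

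Ltbp1, Ltbp3 and Bmp1, the protease that cleaves procollagen and chordin, were not called. Ltbp1 was lower in all graft libraries (2373 to 5218) than in all BM-MSC libraries (6286 to 8270.3), with a difference of -1.03 ± 0.36, adjusted p = 0.111. Bmp1 ranged from 2536 to 6132 in graft BM-MSCs, from 1197 to 1661 in BM-MSCs and from 2265 to 12089 in P-SSCs. Ltbp3 ranged from 1370.3 to 5215, from 1025 to 1404 and from 973 to 6499 in the same order.

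**Figure D3:**
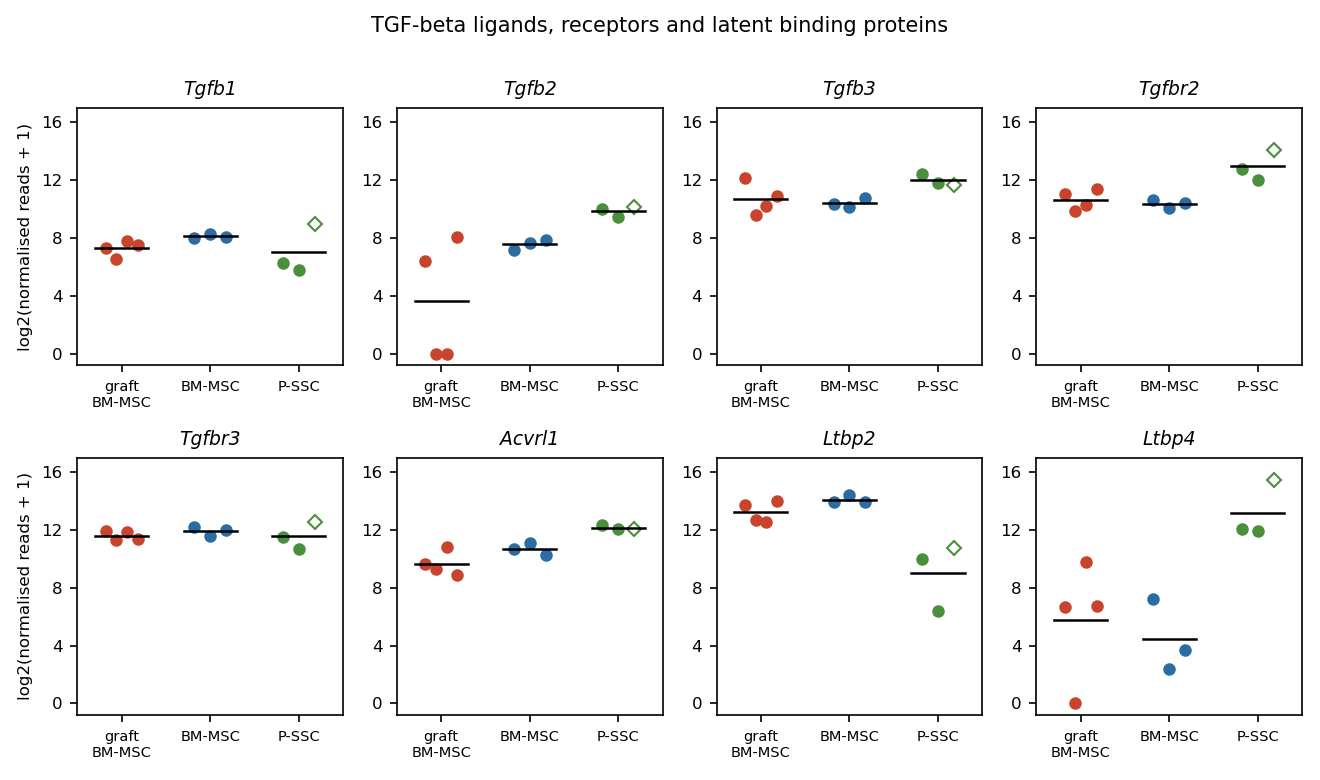
Each point is a library, plotted as log2(normalised reads + 1), with a bar at the group mean and an open diamond for P-SSC 4. Tgfb2, Tgfbr2, Acvrl1 and Ltbp4 are highest in P-SSCs, whereas Ltbp2 is lowest there and Tgfbr3 overlaps between all groups.

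Among the secreted antagonists, Chrdl1 and Grem1 were lower and Fstl1 higher in P-SSCs than in both marrow groups, and Fst was highest in graft BM-MSCs. Chrdl1 (chordin-like 1, which binds BMPs) stood at 20790.1, 17668, 22784 and 24592 normalised reads in graft BM-MSCs, 25134, 14157 and 16555 in BM-MSCs and 1154, 688 and 1565 in P-SSCs. The marrow groups overlapped, and both lay wholly above the P-SSCs. It was 18.9 times as high in graft BM-MSCs as in P-SSCs by the means (4.31 ± 0.29, adjusted p = 1.46e-05), and lower in P-SSCs than in BM-MSCs (-4.07 ± 0.31, adjusted p = 3.05e-05). Against BM-MSCs the graft difference was 0.24 ± 0.29 (95% interval -0.41 to 0.89) and was not called. Of the 9 antagonists, Chrdl1 took 28.2% to 39.8% of the per-kilobase level in graft BM-MSCs, 30.3% to 36.4% in BM-MSCs and 0.796% to 2.07% in P-SSCs.

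Grem1 (gremlin 1, an antagonist of Bmp2, Bmp4 and Bmp7 and a known marker of skeletal progenitors) stood at 2543, 2565, 1813 and 1515 normalised reads in graft BM-MSCs, 2284, 1768 and 2829.6 in BM-MSCs and 36.4, 0 and 0 in P-SSCs. P-SSC 2+5 and P-SSC 4 were listed at 0, while the lowest marrow library, graft BM-MSC 4, held 1515. Grem1 was higher in graft BM-MSCs than in P-SSCs (9.27 ± 1.10, adjusted p = 0.000264) and lower in P-SSCs than in BM-MSCs (-9.40 ± 1.17, adjusted p = 0.000534). Graft BM-MSCs and BM-MSCs overlapped, with a difference of -0.13 ± 1.10 and a 95% interval of -2.57 to 2.31. The summed level of the marrow stroma markers was also lowest in P-SSCs.

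Fst (follistatin, which sequesters activins and some BMPs) separated graft BM-MSCs from both steady-state groups. It stood at 5987, 3617, 8057 and 9212 normalised reads in graft BM-MSCs, 612, 463 and 649 in BM-MSCs and 327, 345 and 855 in P-SSCs. The lowest graft value was above every other library, of which P-SSC 4 was the highest. Fst was higher in graft BM-MSCs than in BM-MSCs (3.47 ± 0.42, adjusted p = 0.00189) and than in P-SSCs (3.78 ± 0.42, adjusted p = 0.000187), and P-SSCs did not differ from BM-MSCs by a call (-0.31 ± 0.45, adjusted p = 0.92, 95% interval -1.31 to 0.70). With the GC split as a covariate it was still called against P-SSCs, and against BM-MSCs the difference was 2.13 (adjusted p = 0.261). Its share of the antagonists' per-kilobase level was 11.9% to 20.8% in graft BM-MSCs and 1.31% to 1.75% in BM-MSCs.

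Fstl1 (follistatin-like 1, a secreted glycoprotein of mesenchymal cells) had the highest mean per-kilobase level of the role in each group, at 4160.0, 4903 and 12249. It stood at 28785, 12624, 13701 and 26659 normalised reads in graft BM-MSCs, 28479.6, 20293 and 23505 in BM-MSCs and 68601, 61319 and 50649 in P-SSCs. All P-SSC values were above all marrow values. Fstl1 was lower in graft BM-MSCs than in P-SSCs (-1.65 ± 0.30, adjusted p = 0.00359) and lost this call after quantile normalization and the GC correction (-0.79, adjusted p = 0.0949 in the latter). It was higher in P-SSCs than in BM-MSCs (1.32 ± 0.32, adjusted p = 0.0267). That call was lost after median centring or quantile normalization, by edgeR and without any of the 3 BM-MSC libraries, P-SSC 1 or P-SSC 2+5 (adjusted p 0.0501 to 0.112). Chrd (chordin) stood at 229, 309.5 and 1592 in P-SSCs, above every other library (0 to 132), and was not called (P-SSCs against BM-MSCs 6.32 ± 2.15, adjusted p = 0.111). Fstl3 stayed at or under 366 and was not called. Nog (noggin) did not pass 33.9 in any library, and Chrdl2 was at 0 in all 7 marrow libraries and at 21.8, 36.9 and 38.8 in P-SSCs.

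Per kilobase, Acvrl1 led the type I and Tgfbr2 the type II receptors, and both were highest in P-SSCs. Acvrl1 (ALK1, a type I receptor for BMP9 and TGF-beta that is best known from endothelium) stood at 796, 619.8, 1771 and 469.5 normalised reads in graft BM-MSCs, 1653, 2230.5 and 1262 in BM-MSCs and 5134, 4211 and 4200.1 in P-SSCs. All P-SSC values were above all others, and its mean per kilobase was 1059 in P-SSCs, 402 in BM-MSCs and 214 in graft BM-MSCs. It was lower in graft BM-MSCs than in P-SSCs (-2.49 ± 0.42, adjusted p = 0.00216), and the difference between P-SSCs and BM-MSCs was not called (1.43 ± 0.45, adjusted p = 0.0811). With the GC correction or the GC split as a covariate the graft difference was -1.51 and -2.39, with adjusted p of 0.0563 and 0.0601. The summed endothelial markers were at most 58.6 normalised reads in P-SSCs and 227.8 in BM-MSCs, and all of them were at 0 in graft BM-MSCs.

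Tgfbr2, the type II receptor that binds TGF-beta, stood at 2087, 944, 1245 and 2649.7 normalised reads in graft BM-MSCs, 1576, 1057 and 1391 in BM-MSCs and 6870.0, 4160.4 and 17589 in P-SSCs. Graft BM-MSCs and BM-MSCs overlapped and lay below all P-SSCs, with P-SSC 4 highest. It was lower in graft BM-MSCs than in P-SSCs (-2.32 ± 0.49, adjusted p = 0.0084) and higher in P-SSCs than in BM-MSCs (2.59 ± 0.53, adjusted p = 0.00977). Between graft BM-MSCs and BM-MSCs the difference was 0.27 ± 0.49 (95% interval -0.83 to 1.37). Tgfbr2 took 96.9% to 97.5% of the per-kilobase level of the 4 type II receptors in P-SSCs and 43.0% to 81.6% in graft BM-MSCs, where Acvr2a, an activin receptor, took 17.1% to 38.8%.

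Bmpr1a, a main type I receptor for Bmp2 and Bmp4, stood at 823, 664, 433 and 827 normalised reads in graft BM-MSCs, 162, 105 and 188 in BM-MSCs and 257, 192 and 570.0 in P-SSCs. All graft values were above all BM-MSC values, and P-SSC 4 lay among the graft values. Bmpr1a was higher in graft BM-MSCs than in BM-MSCs (2.16 ± 0.51, adjusted p = 0.031). The call was lost without any of graft BM-MSC 1 or 4 or the 3 BM-MSC libraries (adjusted p 0.0590 to 0.120) and by edgeR (adjusted p = 0.0741), and the difference was 0.81 with the GC split as a covariate.

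The co-receptor Tgfbr3 (betaglycan, which presents TGF-beta to Tgfbr2) was called in no comparison. It stood at 3812, 2554, 3712 and 2659 normalised reads in graft BM-MSCs, 4754, 3066 and 4174 in BM-MSCs and 2895, 1645 and 6012 in P-SSCs, and all groups overlapped. Its difference was 0.03 ± 0.39 for graft BM-MSCs against P-SSCs, with a 95% interval of -0.83 to 0.90. The decoy receptor Bambi ranged from 500.0 to 1226 in graft BM-MSCs, from 376 to 520.1 in BM-MSCs and from 102 to 1114 in P-SSCs, and was not called. Of the remaining receptors, Acvr1 and Acvr2a were higher in all graft libraries than in all others without being called (for Acvr2a, 2.83 ± 1.12, adjusted p = 0.148 against BM-MSCs). Tgfbr1, Acvr1b and Acvr2b were listed at 0 in 1 graft library each and reached 685, 392 and 285 in others of that group, and Bmpr2 ranged from 16.4 to 139 over all libraries, with no call. Bmpr1b was at 0 in all marrow libraries and at 34.3, 40.8 and 2.91 in P-SSCs.

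Smad4, the common partner of all receptor-regulated SMADs, was higher in graft BM-MSCs than in both other groups. It stood at 2369, 982, 2583 and 2728 normalised reads in graft BM-MSCs, 283, 116 and 135 in BM-MSCs and 177, 251 and 329 in P-SSCs. The lowest graft library held more than any library of the other groups. The difference was 3.61 ± 0.50, adjusted p = 0.00301 against BM-MSCs and 3.04 ± 0.50, adjusted p = 0.00187 against P-SSCs, while P-SSCs against BM-MSCs was not called (0.57 ± 0.53, adjusted p = 0.774). Both graft calls were lost with the GC split as a covariate, at 2.97 (adjusted p = 0.294) and 2.61 (adjusted p = 0.0636), and the graft mean was 6.59 times P-SSC 4, the P-SSC library on the same side of that split. Smad4 had the highest per-kilobase level, over all libraries, of the 6 receptor-regulated and common SMADs and took 62.8% to 79.2% of it in graft BM-MSCs, 25.9% to 34.5% in BM-MSCs and 17.7% to 51.9% in P-SSCs. As a ratio within each library, Smad4 per Smad2 (per kilobase) was 5.25, 5.74, 9.59 and 5.32 in graft BM-MSCs, 1.37, 0.77 and 0.675 in BM-MSCs and 1.26, 1.67 and 3.21 in P-SSCs, chosen after its values were seen.

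The receptor-regulated SMADs were called in no comparison. Smad2 was higher in all graft libraries (405 to 1213) than in all P-SSC libraries (242 to 355), with a difference of 1.31 ± 0.45, adjusted p = 0.0683. Smad1 ranged from 124 to 1258 in graft BM-MSCs, from 31.6 to 228 in BM-MSCs and from 21.7 to 808 in P-SSCs. Smad5, Smad3 and Smad9 were listed at 0 in 1, 1 and 2 graft libraries, reached 667, 1091 and 58.0 in their highest libraries (P-SSC 1, P-SSC 4 and BM-MSC 2+4) and overlapped between all groups.

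Smad6, the inhibitory SMAD that acts mainly on BMP receptors, stood at 1072, 549.8, 1070.5 and 791 normalised reads in graft BM-MSCs, 53.3, 61.2 and 59.2 in BM-MSCs and 16.6, 2.55 and 327 in P-SSCs. All graft libraries were above all others, and P-SSC 4 was far above the other P-SSCs. It was higher in graft BM-MSCs than in P-SSCs (4.94 ± 1.27, adjusted p = 0.0217), while the graft mean was 2.67 times P-SSC 4 alone. This call was lost without P-SSC 1 or P-SSC 2+5 (adjusted p 0.0646 to 0.0868) and by edgeR (2.96, adjusted p = 0.163), and the difference was 1.36 with the GC split as a covariate. Against BM-MSCs it was 3.84 ± 1.27 and not called (adjusted p = 0.0968), and it was called by DESeq2, after quantile normalization, after the GC correction and without P-SSC 2+5 or P-SSC 4. Smad6 has a GC content of 60.8%, against a median of 51.8% for the 51 tested genes. Smad7, which dampens TGF-beta and BMP signals, was higher in all graft libraries (88.5 to 138) than in all others (18.7 to 83.3) and was not called.

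**Figure D4:**
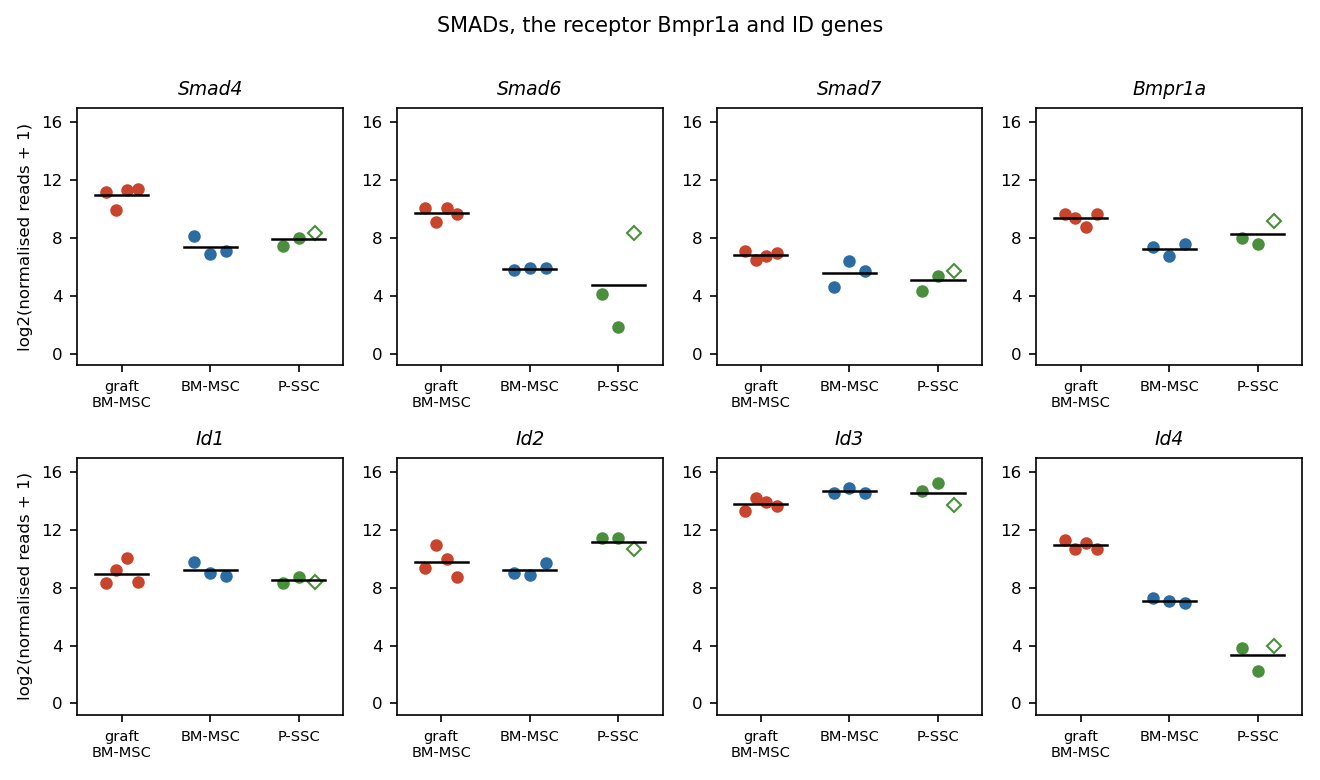
Each point is a library, plotted as log2(normalised reads + 1), with a bar at the group mean and an open diamond for P-SSC 4. Smad4, Smad6 and Id4 are highest in graft BM-MSCs, Id4 separates all 3 groups, and Id1 and Id3 overlap between graft BM-MSCs and P-SSCs.

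The ID genes encode helix-loop-helix proteins that block differentiation factors and are induced by BMPs, and the 4 genes differed in their pattern. Id4, which is known to favour osteoblast over adipocyte differentiation, stood at 2593, 1606, 2164 and 1617 normalised reads in graft BM-MSCs, 159, 134 and 122 in BM-MSCs and 13.5, 3.82 and 14.5 in P-SSCs. The groups were ordered graft BM-MSCs, BM-MSCs, P-SSCs with no overlap, and the graft mean was 14.4 times that of BM-MSCs and 188 times that of P-SSCs. All 3 differences were called: 7.57 ± 0.61, adjusted p = 3.17e-05 for graft BM-MSCs against P-SSCs, 3.82 ± 0.61, adjusted p = 0.00584 for graft BM-MSCs against BM-MSCs and -3.75 ± 0.65, adjusted p = 0.00378 for P-SSCs against BM-MSCs. With the GC split as a covariate the first was still called, and the second was 2.92 (adjusted p = 0.388). P-SSC 4 held 14.5, so the graft mean was 137.2 times the P-SSC library on its side of the split. Id4 has a GC content of 42.6%, below the median of the genes tested (49.7%).

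Id3, the most abundant ID gene, had mean levels of 8099.8, 14628 and 14738 per kilobase and took 82.4% to 89.1%, 93.0% to 96.2% and 88.6% to 93.4% of the level of the 4 ID genes. It stood at 10330.1, 18983, 15804 and 12910.0 normalised reads in graft BM-MSCs, 24063, 30939 and 23593 in BM-MSCs and 26657, 39220.4 and 13310.0 in P-SSCs. All graft values were below all BM-MSC values, and no comparison was called (graft BM-MSCs against BM-MSCs -0.88 ± 0.34, adjusted p = 0.137). Id2 stood at 646, 1959.8, 1039 and 419 normalised reads in graft BM-MSCs, 516, 483 and 827 in BM-MSCs and 2782, 2855 and 1618 in P-SSCs. P-SSCs were above all BM-MSCs, and it was higher in P-SSCs than in BM-MSCs (1.99 ± 0.54, adjusted p = 0.0435), a call that was lost without any of graft BM-MSC 1 or 3, the 3 BM-MSC or the 3 P-SSC libraries (adjusted p 0.0515 to 0.151). Id1 overlapped between graft BM-MSCs and both other groups, from 314 to 1043 over all libraries, and was not called.

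The promoter bases of 3 ID genes and of Grem1 are shown because these genes took different orders in the 3 groups, and GGCGCC, a palindromic GC-rich element described for BMP-responsive SMADs in ID promoters, was searched in them (either strand gives the same letters). Each sequence holds the 250 bases before the RefSeq start on GRCm38.p6, 5′ to 3′ on the gene's strand, with GGCGCC in capitals. Id4 lies at chr13:48260866-48261115 on the plus strand, Id2 at chr12:25096093-25096342 on the minus strand, Id3 at chr4:136143572-136143821 on the plus strand and Grem1 at chr2:113758649-113758898 on the minus strand.
Id4: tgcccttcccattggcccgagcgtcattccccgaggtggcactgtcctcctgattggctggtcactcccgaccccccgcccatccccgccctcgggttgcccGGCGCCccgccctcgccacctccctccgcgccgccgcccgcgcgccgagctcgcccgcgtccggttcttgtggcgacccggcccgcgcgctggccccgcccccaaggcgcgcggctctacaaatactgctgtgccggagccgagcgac
Id2: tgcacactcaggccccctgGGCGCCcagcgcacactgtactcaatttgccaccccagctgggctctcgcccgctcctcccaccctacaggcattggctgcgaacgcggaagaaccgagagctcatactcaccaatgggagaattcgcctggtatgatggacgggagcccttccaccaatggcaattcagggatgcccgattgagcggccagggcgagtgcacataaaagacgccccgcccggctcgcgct
Id3: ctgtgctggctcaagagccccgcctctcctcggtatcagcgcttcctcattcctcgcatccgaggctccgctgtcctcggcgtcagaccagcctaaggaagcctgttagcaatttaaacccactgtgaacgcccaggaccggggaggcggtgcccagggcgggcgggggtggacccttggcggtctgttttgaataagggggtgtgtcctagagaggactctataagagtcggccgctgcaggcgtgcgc
Grem1: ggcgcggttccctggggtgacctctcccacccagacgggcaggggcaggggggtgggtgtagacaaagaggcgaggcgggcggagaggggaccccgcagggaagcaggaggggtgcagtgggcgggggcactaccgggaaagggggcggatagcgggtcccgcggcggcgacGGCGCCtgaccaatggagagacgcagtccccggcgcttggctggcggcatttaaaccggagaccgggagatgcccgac
The match begins 148 bases before the start in Id4, 231 in Id2 and 78 in Grem1, and Id3 holds no match in its window. RefSeq windows were found for 37 of the 57 genes, in 46 windows, of which 11 (23.9%) in 10 genes held GGCGCC, against 9.59% of all 32851 windows. Windows of the genes were richer in GC (median 65.4%) than all windows (median 52.4%). GTCTAGAC, a palindrome bound by Smad3 and Smad4, was in 0 of the 46 windows and in 0.167% of all. A match is a description of the letters and not of a bound site.

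**Figure D5:**
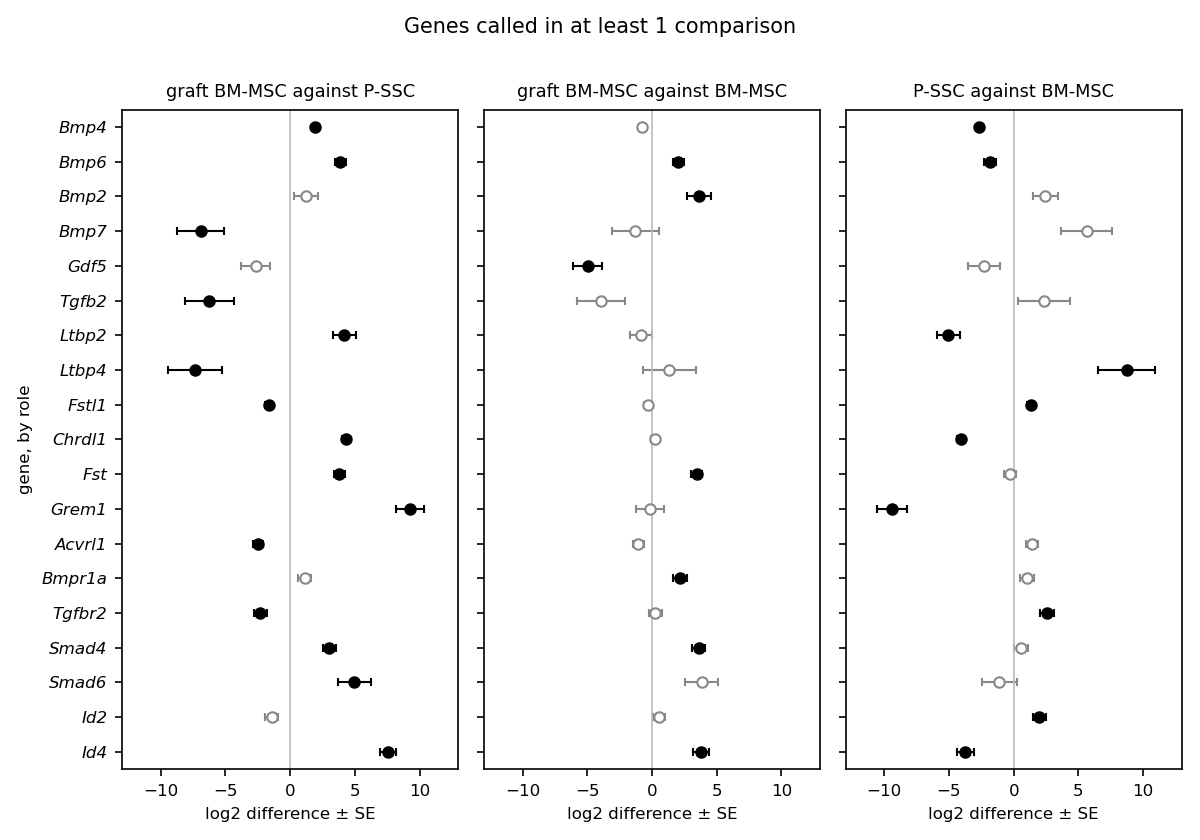
Points show the log2 difference (x axis) of the 19 genes called in at least 1 comparison (y axis, by role), with bars for ± 1 standard error, in the 3 comparisons. Filled points were called at an adjusted p under 0.05 and open points were not. In the panel for graft BM-MSCs against P-SSCs, Grem1 and Id4 lie farthest to the right and Ltbp4, Bmp7 and Tgfb2 farthest to the left.

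In all, 19 of the 51 tested genes were called in at least 1 comparison, and their differences are plotted side by side. The comparisons share libraries, and how their differences compare was not tested. Of 50 tested genes with a value above 0 in the other P-SSC libraries, 34 were higher in P-SSC 4 than in both (68.0%, against 37.6% of 12782 such genes of the whole table) and 28 at least 2-fold higher than their mean (56.0%, against 26.5%). Values did not overlap between graft BM-MSCs and P-SSCs for 21 of the 51 genes (41.2%, background 26.6%), 13 higher in the graft (25.5%, background 8.06%) and 8 lower (15.7%, background 18.5%). Graft BM-MSCs and BM-MSCs did not overlap for 17 genes (33.3%, background 25.0%), 11 higher in the graft (21.6%, background 10.3%) and 6 lower (11.8%, background 14.7%), and P-SSCs and BM-MSCs for 27 genes (52.9%, background 30.9%), 16 higher (31.4%, background 15.1%) and 11 lower in P-SSCs (21.6%, background 15.8%). At an unadjusted p under 0.05 by limma the counts were 25 (49.0%, background 32.8%), 17 (33.3%, background 25.5%) and 19 (37.3%, background 18.7%).

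Called genes lay on many chromosomes. On GRCm38 (GENCODE M21, matched by Ensembl gene ID), Bmp4 is at chr14:46383520-46390669, minus strand, Bmp6 at chr13:38345107-38500302, plus strand, Id4 at chr13:48261228-48266026, plus strand, Fst at chr13:114452290-114458951, minus strand, Grem1 at chr2:113746164-113758646, minus strand and Chrdl1 at chrX:143285674-143394262, minus strand. Bmp6, Id4, Fst, Inhba and Smad5 share chromosome 13. Among the 6 genes higher in graft BM-MSCs than in BM-MSCs, GC content was 41.3% (Bmpr1a), 42.6% (Id4), 44.3% (Fst), 49.4% (Smad4), 52.5% (Bmp2) and 57.8% (Bmp6). The 65% cut served only to sort the libraries and sets no bound on the genes that differ with the split. In P-SSC 4 these 6 genes stood at 1.54 (Smad4) to 8.13 times (Bmp2) the mean of the other P-SSC libraries. The part of the split in their graft calls cannot be told apart from that of the groups.

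Other genes of the pathway were followed in lists of 82 genes (70 tested) that hold further antagonists, ligands and receptors, activators of latent TGF-beta, intracellular regulators and textbook response genes. Between graft BM-MSCs and P-SSCs 10 were higher (14.3%, background 6.08%) and 15 lower (21.4%, background 12.0%), with a median difference of -0.79 (-0.47 over all genes). The 3 largest rises were in Runx2, the master factor of osteoblasts (5.38 ± 0.47, adjusted p = 4.65e-05), Tgif2, a SMAD co-repressor (4.36 ± 1.04, adjusted p = 0.0151), and Crim1, a transmembrane BMP binder (3.94 ± 0.86, adjusted p = 0.00947). The 3 largest falls were in Postn (-12.36 ± 1.66, adjusted p = 0.000535), whose promoter drives the Cre in the graft mice, and Fn1 (fibronectin; -11.70 ± 2.50, adjusted p = 0.0084), both listed as textbook TGF-beta response genes, and in Kcp, a chordin-like enhancer of BMP signals (-9.19 ± 1.53, adjusted p = 0.00201). Postn was at 0 in every graft library except graft BM-MSC 4 (235), and Tgif2 averaged 4.67 normalised reads in P-SSCs. The size of such differences, and of that of Postn from BM-MSCs, depends on the added 1. Textbook BMP response genes were higher in 4 (57.1%) and lower in 0 of 7 tested, and textbook TGF-beta response genes were higher in 1 (Ccn2, 9.09%) and lower in 5 (45.5%) of 11 tested, beside the same background of 6.08% higher and 12.0% lower. Against BM-MSCs the graft counts were 0 higher and 1 lower (14.3%) of the BMP list and 0 and 2 (18.2%) of the TGF-beta list. The background there was 2.61% higher and 5.06% lower. For P-SSCs against BM-MSCs they were 0 and 3 (42.9%) and 1 (9.09%) and 0, with a background of 4.57% and 4.58%. The BMP list includes the osteoblast factors Runx2, Sp7 and Dlx5, and the part of osteoblast cells was not tested. The TGF-beta list includes Postn, which is also among the periosteal markers, and Col1a1, which is also among the osteoblast markers. How far its counts reflect cell type was likewise not tested.

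Between graft BM-MSCs and BM-MSCs 3 of the 70 genes were higher (4.29%, background 2.61%) and 5 lower (7.14%, background 5.06%), shares near the background. The rises were in Pmepa1, a TGF-beta induced inhibitor of SMAD signalling (3.68 ± 0.31, adjusted p = 0.000784), the integrin gene Itgb5 (2.60 ± 0.39, adjusted p = 0.00456) and the co-repressor Ski (2.06 ± 0.49, adjusted p = 0.0307). The 3 largest falls were in Postn (-10.14 ± 1.66, adjusted p = 0.00624), Col1a1 (-5.48 ± 0.47, adjusted p = 0.000799) and the co-receptor Eng (-1.69 ± 0.42, adjusted p = 0.0391). Between P-SSCs and BM-MSCs 12 were higher (17.1%, background 4.57%) and 4 lower (5.71%, background 4.58%), led by Kcp (10.27 ± 1.64, adjusted p = 0.00208), Mstn (myostatin; 5.62 ± 0.78, adjusted p = 0.00086) and the BMP antagonist Nbl1 (5.32 ± 1.03, adjusted p = 0.00736). The 3 largest falls were in Sp7 (-4.51 ± 0.62, adjusted p = 0.00086), Runx2 (-4.16 ± 0.50, adjusted p = 0.000396) and Dlx5 (-2.46 ± 0.35, adjusted p = 0.00112), all osteoblast transcription factors, in a comparison in which 3 of 6 osteoblast markers were called lower in P-SSCs and 0 higher.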

How the data were processed

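RNA of sorted cells was sequenced in 10 libraries (4 graft BM-MSC, 3 BM-MSC, 3 P-SSC). Per the study's methods the authors mapped reads to GRCm38 with STAR and used DESeq2, while the submitters' processing notes name GRCm39, STAR 2.5, featureCounts of Subread 1.4.6 and DESeq2 1.26.0. The annotation and strand setting are not given in the sources used here, and paralogs or overlapping genes may share reads. The deposited table holds a signal per gene and library, the authors' read count divided by a size factor. Values were whole multiples of 1 read for 100% of values in each library (tolerance 0.01 reads), and totals were 15415421 to 25223295 reads. All columns were mapped to libraries by name.

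Values were analysed as log2(value + 1). This can understate changes of low genes, and it can enlarge or reverse them where single libraries of a group are at 0. Against P-SSCs the graft difference of Tgfb2 was -6.25 by limma and -3.33 by edgeR. That of Tgfbr1, at 0 in graft BM-MSC 2, was -1.98, although its graft mean was 1.37 times the P-SSC mean. The 13644 of 15078 genes that averaged 10 or more across libraries were fitted with limma 3.58.1 (R 4.3.3, trended empirical Bayes, 1 mean per group, all 10 libraries, 7 residual degrees of freedom). Tests were two-sided with Benjamini-Hochberg adjustment. The members, lists, tests and alternatives were chosen with earlier results of these data known. Values per library and statistics are given for genes called at an adjusted p under 0.05 in any comparison and for the gene with the highest level per kilobase of each role, and of the other pathway lists the 3 largest called rises and falls. Exon length and GC content came from GENCODE M21 (GRCm38), the genome build of the methods, and promoters from RefSeq. The GC split was the median log2 value of 51 genes above 65% GC minus that of 6033 genes at 50% to 60%. Alternatives were pseudocounts of 0.1 and 5, no filter or a mean minimum of 100, median centring, quantile normalization, edgeR 4.0.16 (quasi-likelihood, TMM) and DESeq2 1.42.0 on recovered reads, a GC correction (loess, span 0.3), the GC split as a covariate, P-SSCs against BM-MSCs on the low side of it, a replicate block, leaving out each library, and an adjusted p under 0.01. DESeq2 gave no adjusted p for 4 of the genes, which stay out of its calls. Of the members, 1 is not reported here. The limma, edgeR and DESeq2 fits without a covariate were tested on simulated reads, which held no GC split.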

Additional observations from a re-analysis of the deposited data

Results flagged for a closer look

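In the 4 graft BM-MSC libraries, 51 genes were compared by the gap of the highest or lowest library to its neighbour, and 4 had a library that stood apart (a gap of 0.855 to 0.981 of the group's range). Chance alone gives about 5% of such groups. Bmp7 stood at 45.8 normalised reads in graft BM-MSC 1 and at most 0.863 in the other 3. Ltbp4 stood at 877.1 in graft BM-MSC 3 against at most 104, Smad9 at 37.3 in the same library against at most 2.82, and Acvr2a at 780.5 in the same library against at most 442. Graft BM-MSC 3 also had the highest summed leukocyte markers of its group, and their part in these values was not tested.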

How the results depend on the processing

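Counts of called genes among the 51 depended on the processing. For graft BM-MSCs against P-SSCs (15) the count was 7 with the GC split as a covariate (7.92% of all genes called), and for graft BM-MSCs against BM-MSCs (7) it was 0 with it (0.293%), 3 by edgeR (2.32%) and 3 at an adjusted p under 0.01 (2.24%). For P-SSCs against BM-MSCs (10) it was 6 by edgeR (4.54%), 6 at an adjusted p under 0.01 (5.82%) and 17 among the libraries on the low side of the GC split (15.0%). Leaving out each library gave 11 to 17, 3 to 11 and 6 to 11 calls. In the second comparison the count was 4 without BM-MSC 1 (3.96% of all genes called) and 3 without BM-MSC 2+4 (3.49%). It was 3 without BM-MSC 3 (3.5%) and 11 without P-SSC 4 (11.6%), against 7.67% of all genes with all libraries. In the third it was 6 without BM-MSC 2+4 (6.87%), BM-MSC 3 (6.72%) or P-SSC 2+5 (7.73%), against 9.15%. The share of all genes called thus moved in the same direction as these counts. The causes were not tested. Under the other alternatives counts stayed within 1.5 times. No called gene changed sign under any alternative run. With the replicate block left aside, 7 of 15, 0 of 7 and 6 of 10 calls were kept in every alternative run.

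Between libraries with the same replicate number in their titles, correlations of deviations ranged from -0.0191 to 0.0295. The pooled libraries BM-MSC 2+4 and P-SSC 2+5 were in none of these pairs. Of BM-MSCs with P-SSCs, only BM-MSC 1 and P-SSC 1 were compared. The correlations therefore cannot show whether libraries of different groups came from the same mice. A fit blocked on the replicate number keeps 2 residual degrees of freedom and called 4, 0 and 2 genes (1.97%, 0.022% and 0.396% of all genes), and 9 of 51 had an unadjusted p under 0.05 in the second comparison, against 17 without the block and 15 by edgeR. Depth limits low genes: 1 to 3 reads are within counting error, and 6 genes were too low to test.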
